A study of Mus musculus with 6 samples.

Results

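The 10 genes described here encode TRAF adaptors (Traf1, Traf2, Traf3, Traf5 and Traf6), the cIAP ubiquitin ligases (Birc2 and Birc3), A20 and its partner ABIN1 (Tnfaip3 and Tnip1) and the deubiquitinase CYLD (Cyld). They were taken by gene name from a table of 56748 mouse genes, in which each has 1 row. All 10 had a mean of at least 1 FPKM (fragments per kilobase of gene, scaled to the depth of the library) and were among the 10898 genes tested. The libraries came from RAW264.7, a macrophage-like mouse cell line, infected with a lentivirus. In 3 libraries it carried Fbxw11 with a GFP marker driven by a PGK promoter (pMSCV-Fbxw11-pGk-GFP), and in the other 3 the control vector, which the library names call GFP. All cells were sorted before RNA was extracted, and the labels do not say whether separate infections, clones or cultures lay behind the 3 libraries of a group. The p-values below therefore reflect library-to-library spread, possibly of technical origin. The title of the series concerns polarization of macrophages. The Fbxw11 protein, β-TrCP2, selects substrates for an SCF-type ubiquitin ligase.

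TRAF proteins are recruited to TNF receptor family members, interleukin-1 receptors and Toll-like receptors, where several of them and the cIAPs build ubiquitin chains that assemble and activate kinase complexes upstream of NF-kB. A20, with its binding partner ABIN1, and CYLD edit or remove such chains and so restrain the signal. In macrophages, transcription of several of these genes, A20 among them, is itself induced by NF-kB, and β-TrCP proteins are best known in this pathway for ubiquitinating the phosphorylated IkB inhibitors.

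The 6 libraries held 16191971 to 18951653 reads, as recovered from the FPKM values. Fbxw11 stood at 271 ± 2.74 FPKM in Fbxw11 libraries and 36.1 ± 0.409 FPKM in control libraries (SD, n = 3 each), a log2 fold change of 2.88, and vector and endogenous reads cannot be told apart. Of 9 macrophage markers, 8 were tested, and 4 of these (50%) were higher in Fbxw11 libraries at a limma adjusted p under 0.05. They were Adgre1, Itgam, Lyz2 and Fcgr1, and the same threshold called 4.60% of all tested genes higher. Csf1r averaged 147 FPKM in Fbxw11 and 154 FPKM in control libraries, lower without overlap, but did not pass (limma adjusted p = 0.290). Mertk reached at most 0.0142 FPKM. The summed level of the 9 markers was 4652 to 4778 FPKM in Fbxw11 libraries and 4197 to 4371 FPKM in control libraries. Summed markers of other cell types stayed low. The 8 lymphocyte markers summed to 3.09 to 4.50 FPKM in Fbxw11 and 4.42 to 4.95 FPKM in control libraries, with Cd3g, Cd8a and Ncr1 at 0. The 5 granulocyte markers summed to 3.30 to 5.66 FPKM and 2.80 to 4.21 FPKM, all of it S100a8. The 6 fibroblast markers summed to at most 0.378 FPKM, with Col3a1 at 0, and the 5 epithelial markers to at most 0.102 FPKM, with Cdh1, Krt18 and Krt19 at 0. Replicates differed by more than sampling noise in each within-group pair (chi-square per degree of freedom 2.42 to 5.86). On the second principal component, Fbxw11 library 3 and control library 3 stood apart from the other 4 libraries.

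Of the set, 3 members rose in Fbxw11 libraries, and each belongs to a different branch of it. Traf1 rose 1.39-fold, Tnfaip3 1.28-fold and Birc3 1.14-fold in mean FPKM. Of the 10 genes, 3 were higher and 0 lower at an adjusted p under 0.05 in limma's fit across all tested genes. Over all genes tested the same threshold called 9.24%, made up of 4.60% higher and 4.64% lower. The 10 genes were chosen with earlier results of these data known, so their count is a description, and enrichment was not tested. The count of 0 falls was also 0 at an unadjusted p under 0.05 in the same fit. At an adjusted p it was 0 with limma's voom on recovered reads. At an unadjusted p under 0.05, 1 member was lower with voom, 1 without Fbxw11 library 3 and 1 without both libraries numbered 3. The 2 groups of libraries did not overlap for 4 of the 10 genes, all 4 higher in Fbxw11 libraries, against 31.1% of all tested genes in either direction, 15.6% higher and 15.5% lower. The median log2 fold change of the 10 was 0.05, against 0.0029 over all genes tested. Bulk libraries cannot tell a change in RNA per cell from a change in the share of cells that express a gene.

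**Figure D1:**
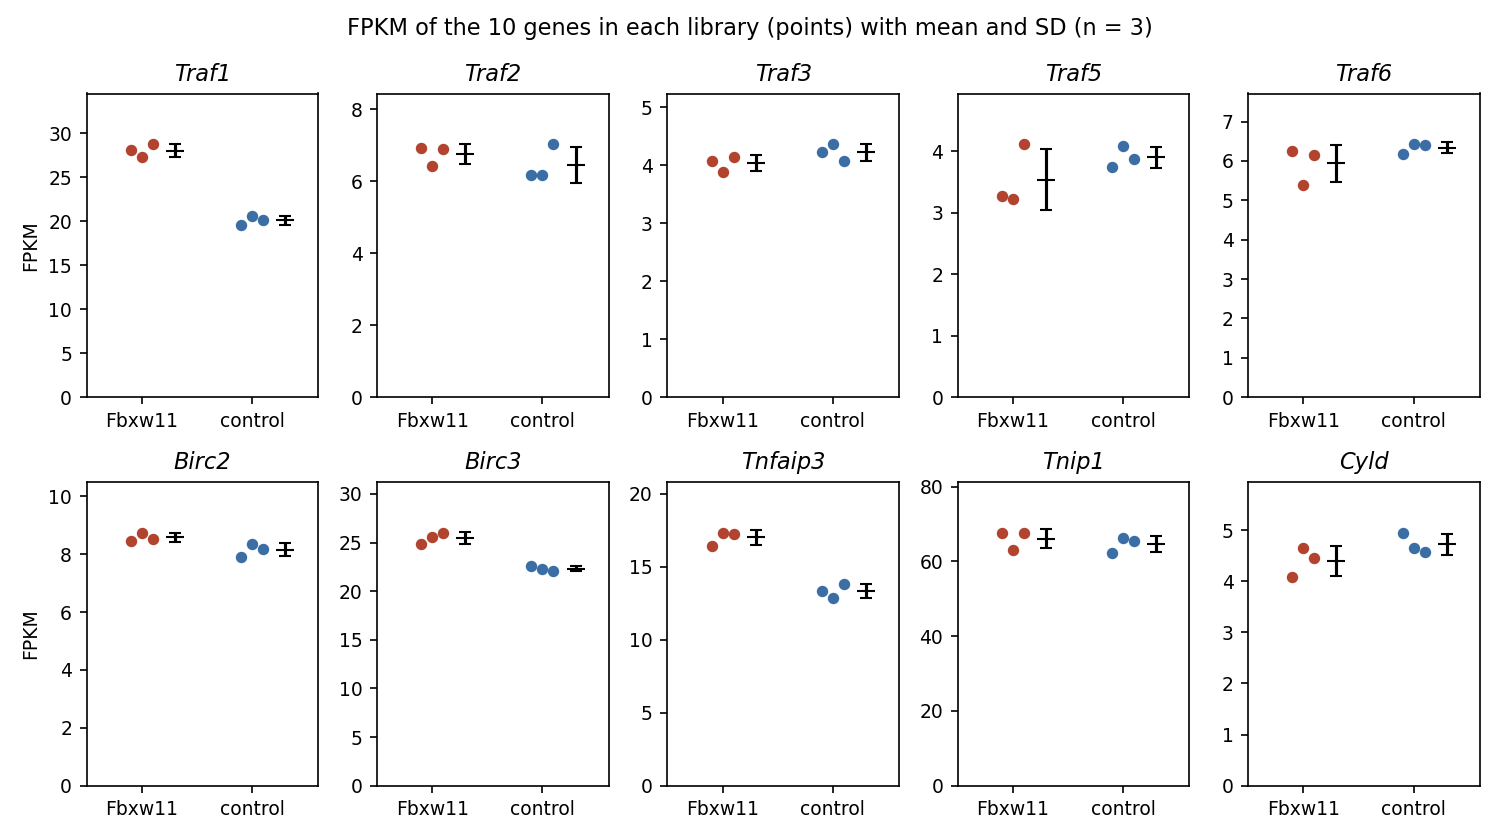
FPKM of each gene (y axis, from 0, a separate scale per panel) in the 3 Fbxw11 libraries (red, left) and the 3 control libraries (blue, right), with the mean and SD of each group in black. The points of Traf1, Tnfaip3, Birc3 and Birc2 do not overlap between groups, and those of the other 6 genes do.

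The stretches of DNA before the start sites of the 3 genes that rose, and of Tnip1, whose protein partners that of Tnfaip3, are shown so that their sequence can be read beside the values. Each is the 250 bases before a RefSeq start site in GRCm38.p6, 5′ to 3′ on the gene's strand. Capitals mark matches to the NF-kB consensus motif on either strand. The motif was read as GGGRNWYYCC, where R is A or G, N any base, W is A or T and Y is C or T.
Traf1: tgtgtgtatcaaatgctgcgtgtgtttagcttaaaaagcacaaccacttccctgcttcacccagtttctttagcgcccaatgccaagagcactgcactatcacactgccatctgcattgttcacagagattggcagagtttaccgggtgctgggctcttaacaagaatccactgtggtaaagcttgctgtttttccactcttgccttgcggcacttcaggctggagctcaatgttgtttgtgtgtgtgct
Tnfaip3: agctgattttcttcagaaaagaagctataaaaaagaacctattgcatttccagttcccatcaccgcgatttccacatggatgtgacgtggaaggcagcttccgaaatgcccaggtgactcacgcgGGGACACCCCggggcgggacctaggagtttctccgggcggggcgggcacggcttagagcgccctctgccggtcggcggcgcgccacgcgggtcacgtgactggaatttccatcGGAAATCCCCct
Birc3: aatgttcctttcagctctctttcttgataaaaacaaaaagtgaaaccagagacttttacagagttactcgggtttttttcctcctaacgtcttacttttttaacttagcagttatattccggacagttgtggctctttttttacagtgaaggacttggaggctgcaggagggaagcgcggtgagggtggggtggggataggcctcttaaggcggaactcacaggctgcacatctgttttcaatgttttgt
Tnip1: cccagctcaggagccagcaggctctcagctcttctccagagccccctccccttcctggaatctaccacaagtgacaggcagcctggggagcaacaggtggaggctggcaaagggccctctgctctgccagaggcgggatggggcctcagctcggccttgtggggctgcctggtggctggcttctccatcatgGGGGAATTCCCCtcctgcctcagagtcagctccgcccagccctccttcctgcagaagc
The windows lie at chr2:34961773-34962022, chr10:19015411-19015660, chr9:7873171-7873420 and chr11:54962941-54963190, all on the minus strand, in the order shown. For Tnfaip3 a further RefSeq start was listed, and the window before it held no match.

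Among the 10 genes, all of which had at least 1 such window, 4 held a match to the motif, namely Tnfaip3, Tnip1, Traf3 and Cyld. Of all 27025 genes with such a window in the RefSeq table, 4.46% held a match. Tnfaip3 had 2 matches, at -125 to -116 and at -12 to -3 from the start. In Tnip1 there were 3 overlapping matches within the stretch in capitals. The matches in Traf3 and Cyld are given with flanking bases to 30 bases in all, because both genes held a match and neither passed the test. The capitals lie at chr12:111166360-111166369 in Traf3 and chr8:88696873-88696882 in Cyld, written on the plus strand, that of both genes. The consensus itself reads on the plus strand in Traf3 and on the minus strand in Cyld.
Traf3: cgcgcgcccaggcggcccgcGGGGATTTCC
Cyld: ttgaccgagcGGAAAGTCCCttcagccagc
Of the 3 genes that rose, Traf1 and Birc3 had no match in these letters, and of the 4 genes with a match, 1 rose. The core of the interferon-stimulated response element, read as GAAA, any 2 bases and GAAA on either strand, was found in none of the 10 genes' windows, against 3.46% of all genes. A match or its absence in these windows is a description of sequence only.

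Among the TRAF genes, Traf1 differed and the other 4 did not pass the test. Traf1 encodes the TRAF that lacks a RING finger and acts by binding TRAF2 and the cIAPs. It stood at 28.1, 27.2 and 28.7 FPKM in Fbxw11 libraries 1 to 3, against 19.6, 20.6 and 20.1 FPKM in control libraries 1 to 3. Every Fbxw11 library lay above every control library, with 6.63 FPKM between the nearest pair. The means were 28.0 ± 0.757 FPKM in Fbxw11 and 20.1 ± 0.508 FPKM in control libraries (SD, n = 3 each), with a log2 fold change of 0.46 (SE 0.037, 95% interval 0.37 to 0.55, limma adjusted p = 0.00142). By its p it ranked 59 among the 10898 genes. Between 4030 and 4320 reads lay behind each Fbxw11 value and between 2841 and 3493 behind each control value. Of the 1007 genes past the threshold, 237 had a larger absolute log2 fold change, and the median of the 1007 was 0.31. Traf1 lies on chromosome 2 at 34831762 to 34851784 on the minus strand in the table's own coordinates, which do not match mm10, the build named in the submitters' processing notes.

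Traf2, the ligase adaptor that brings cIAPs to TNF receptors, had 6.93, 6.42 and 6.89 FPKM in Fbxw11 libraries, against 6.16, 6.17 and 7.03 FPKM in control libraries. Control library 3 was the highest of the 6, so the groups overlapped. The log2 fold change was 0.06 (95% interval -0.09 to 0.20, limma adjusted p = 0.610). Traf5, the gene of another TRAF in TNF receptor signalling, had 3.28, 3.22 and 4.11 FPKM in Fbxw11 libraries, against 3.75, 4.08 and 3.88 FPKM in control libraries. Fbxw11 libraries 1 and 2 lay below every control library, but Fbxw11 library 3 was the highest of all. Its coefficient of variation was 14.2% among Fbxw11 libraries and 4.27% among control libraries, while counting alone gives an error of 6.39% at its fewest reads (245). Traf5 had the widest interval of the 10 genes, at -0.32 to 0.09 on the log2 scale around -0.12 (limma adjusted p = 0.452).

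Traf3, which holds the NF-kB-inducing kinase NIK for degradation and also takes part in interferon induction, had 4.08, 3.88 and 4.15 FPKM in Fbxw11 libraries, against 4.23, 4.37 and 4.08 FPKM in control libraries. These ranges overlapped, with a log2 fold change of -0.05 (95% interval -0.17 to 0.06, limma adjusted p = 0.556). Traf6, the ubiquitin ligase downstream of Toll-like and interleukin-1 receptors, had 6.25, 5.40 and 6.16 FPKM in Fbxw11 libraries, against 6.17, 6.43 and 6.40 FPKM in control libraries. Fbxw11 library 2 was the lowest and the others lay close together. The log2 fold change was -0.08 (95% interval -0.22 to 0.06, limma adjusted p = 0.444). None of these 4 intervals reaches the fitted difference of Traf1, although the difference between genes was not tested.

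The family's make-up was also read within each library, where library scaling has no part. Over 7 TRAF genes, with Traf4 and Traf7 added to complete the family, Traf1 took 47.7%, 49.2% and 47.8% of the summed FPKM in Fbxw11 libraries, against 39.9%, 39.5% and 38.3% in control libraries. Traf1 was the most abundant of the 7 in each of the 6 libraries. Traf7, the next, took 15.8% ± 0.293 in Fbxw11 and 18.5% ± 1.11 in control libraries (SD, n = 3 each), and Traf4 took 1.05% ± 0.158 and 1.42% ± 0.198 in the same order. A share falls when another rises, so the lower shares of these genes are not separate observations. Traf7 itself stood at 9.20 ± 0.529 FPKM in Fbxw11 and 9.49 ± 0.908 FPKM in control libraries (limma adjusted p = 0.803), and Traf4, at 0.607 ± 0.0905 and 0.730 ± 0.114 FPKM in the same order, was under the filter.

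**Figure D2:**
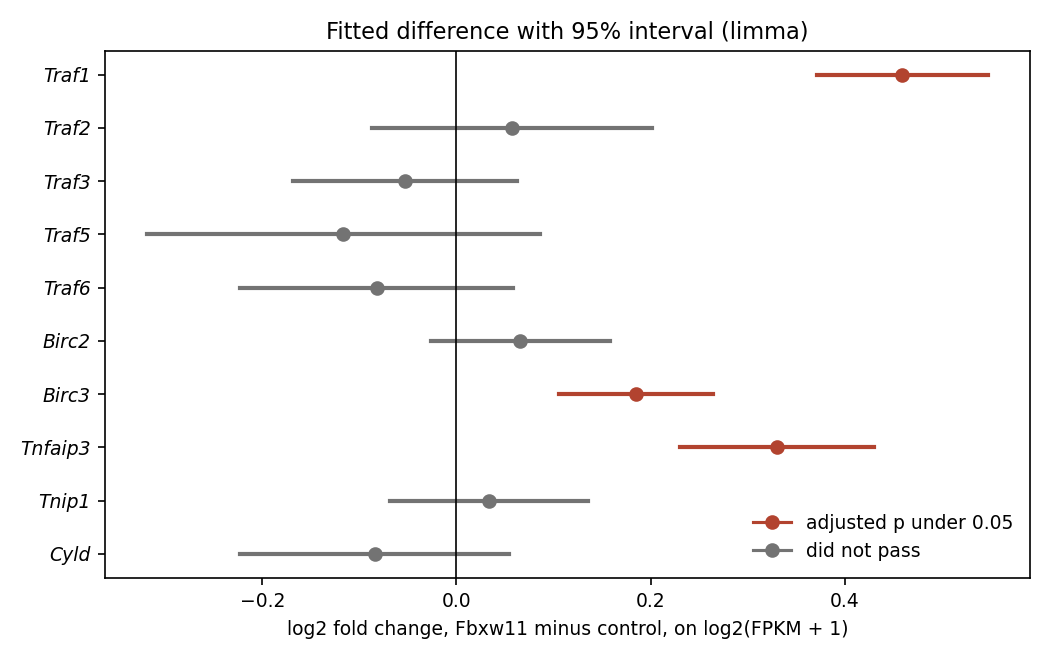
Fitted log2 fold change of each gene (point; x axis, Fbxw11 minus control on log2(FPKM + 1)) with its 95% interval (line), in red where the adjusted p was under 0.05. Traf1 (0.46), Tnfaip3 (0.33) and Birc3 (0.18) have intervals above 0, and the other 7 intervals include 0.

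Of the cIAP genes, Birc3 rose by a small amount and Birc2 did not pass. Birc3, which encodes cIAP2, had 24.8, 25.6 and 26.0 FPKM in Fbxw11 libraries, against 22.5, 22.3 and 22.0 FPKM in control libraries. The groups were 2.28 FPKM apart at their nearest libraries. The means were 25.5 ± 0.610 FPKM in Fbxw11 and 22.3 ± 0.258 FPKM in control libraries (SD, n = 3 each), with a log2 fold change of 0.18 (SE 0.033, 95% interval 0.11 to 0.26, limma adjusted p = 0.0202). This call was the least stable of the 3. It was lost without Fbxw11 library 2 (adjusted p = 0.0741) or 3 (0.0511) and without control library 1 (0.0688), 2 (0.0856) or 3 (0.0605), all with limma. The log2 fold change stayed between 0.17 and 0.20 in fits that left out 1 library.

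Birc2, which encodes cIAP1, had 8.46, 8.75 and 8.53 FPKM in Fbxw11 libraries, against 7.91, 8.36 and 8.19 FPKM in control libraries. Every Fbxw11 value was above every control value, by as little as 0.0995 FPKM. The log2 fold change was 0.07 (95% interval -0.03 to 0.16, limma adjusted p = 0.350). The cIAP genes are neighbours on chromosome 9, both on the minus strand, with 11634 bases and no other listed gene between them in the table's coordinates. They are paralogs, and how reads that match both were counted is not stated, so the split between them is uncertain.

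The A20 gene rose while the genes of its partner and of CYLD did not pass. Tnfaip3 had 16.4, 17.3 and 17.3 FPKM in Fbxw11 libraries, against 13.3, 12.9 and 13.8 FPKM in control libraries. The lowest Fbxw11 library stood 2.62 FPKM above the highest control library. The means were 17.0 ± 0.504 FPKM in Fbxw11 and 13.3 ± 0.487 FPKM in control libraries (SD, n = 3 each), with a log2 fold change of 0.33 (SE 0.042, 95% interval 0.23 to 0.43, limma adjusted p = 0.00616). Each Fbxw11 value rested on 1935 to 2238 reads and each control value on 1585 to 1785. Tnfaip3 ranked 236 by its p and lies on chromosome 10 at 18876658 to 18891405 on the minus strand in the table's coordinates.

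Tnip1, which encodes the ubiquitin-binding A20 partner ABIN1, had 67.7, 63.1 and 67.6 FPKM in Fbxw11 libraries, against 62.2, 66.2 and 65.3 FPKM in control libraries. The groups overlapped over most of their range. The log2 fold change was 0.03 (95% interval -0.07 to 0.14, limma adjusted p = 0.681), and its sign turned on the TPM scale, over plain library sums and with voom. Cyld, the gene of a deubiquitinase that removes linear and lysine-linked chains from NF-kB regulators, had 4.08, 4.66 and 4.46 FPKM in Fbxw11 libraries, against 4.95, 4.65 and 4.56 FPKM in control libraries. Fbxw11 library 2 lay above 2 control libraries. The log2 fold change was -0.08 (95% interval -0.22 to 0.05, limma adjusted p = 0.423).

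Partner genes were set against each other within each library. Traf1 was 4.15 ± 0.0978 times as abundant as Traf2 in Fbxw11 and 3.13 ± 0.244 times in control libraries (ratio of FPKM, SD, n = 3 each). The ratio of Birc3 to Birc2 was 2.97 ± 0.0681 in Fbxw11 and 2.74 ± 0.0981 in control libraries. Tnfaip3 over Tnip1 was 0.258 ± 0.0162 in Fbxw11 and 0.207 ± 0.0110 in control libraries. Tnfaip3 over Cyld was 3.88 ± 0.152 in Fbxw11 and 2.83 ± 0.177 in control libraries. All 4 ratios were higher in each Fbxw11 library than in each control library. On the log2(FPKM + 1) scale the differences were 0.40, 0.12, 0.30 and 0.41 in that order, each with p = 0.1 in a two-sided exact permutation test and 0.1 adjusted over the 4, which is the smallest p that 3 against 3 libraries can give, so none could reach 0.05. The gene on top of each ratio is 1 of the 3 that rose, so these ratios restate those rises relative to a partner.

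**Figure D3:**
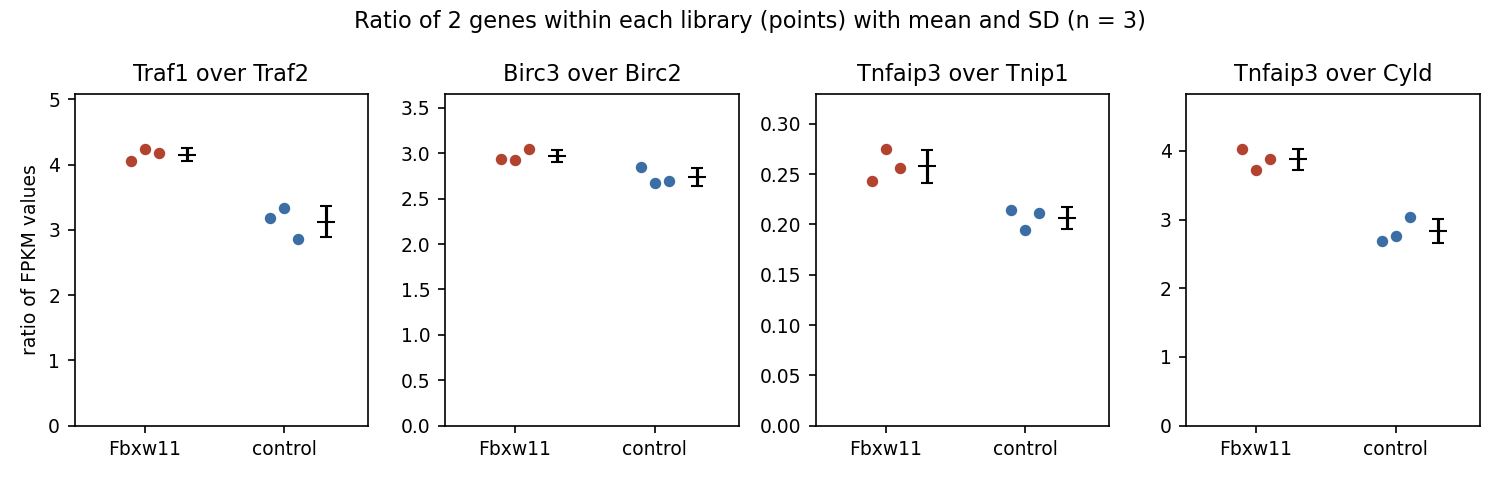
Ratio of the FPKM values of 2 genes within each library (y axis, from 0) in the 3 Fbxw11 libraries (red, left) and the 3 control libraries (blue, right), with the mean and SD of each group in black. Traf1 over Traf2 averages 4.15 in Fbxw11 and 3.13 in control libraries, and Birc3 over Birc2, at 2.97 and 2.74, has the smallest of the 4 differences on the log2 scale.

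The order of the 10 genes by level was nearly the same in both groups. Tnip1 was the most abundant, at 66.1 FPKM in Fbxw11 and 64.6 FPKM in control libraries, above 93.6% of tested genes by its mean over all libraries. In Fbxw11 libraries Traf1 (28.0 FPKM) came before Birc3 (25.5 FPKM), and in control libraries Birc3 (22.3 FPKM) came before Traf1 (20.1 FPKM), with no overlap of the ranges in either group. Tnfaip3 and Birc2 followed in both groups without overlapping a neighbour. Traf2, Traf6, Cyld, Traf3 and Traf5 made up the low end, from 6.75 to 3.54 FPKM in Fbxw11 and from 6.45 to 3.90 FPKM in control libraries. There, Cyld and Traf3 overlapped in Fbxw11 libraries, Traf2 and Traf6 in control libraries, and Traf3 and Traf5 in both. FPKM is per gene length, so these levels can be set against each other, within the limits of the gene models used.

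Other genes annotated across the 10 genes were assigned few reads. In the table's coordinates 8 listed genes overlapped Traf2, Traf3, Traf5, Tnip1 or Cyld, and the most reads any of them had in a library was 17, for Gstp-ps, a pseudogene within Traf5 on the same strand. Each of the 10 genes had at least 245 reads in every library. No listed gene overlapped Traf1, Traf6, Birc2, Birc3 or Tnfaip3.

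**Figure D4:**
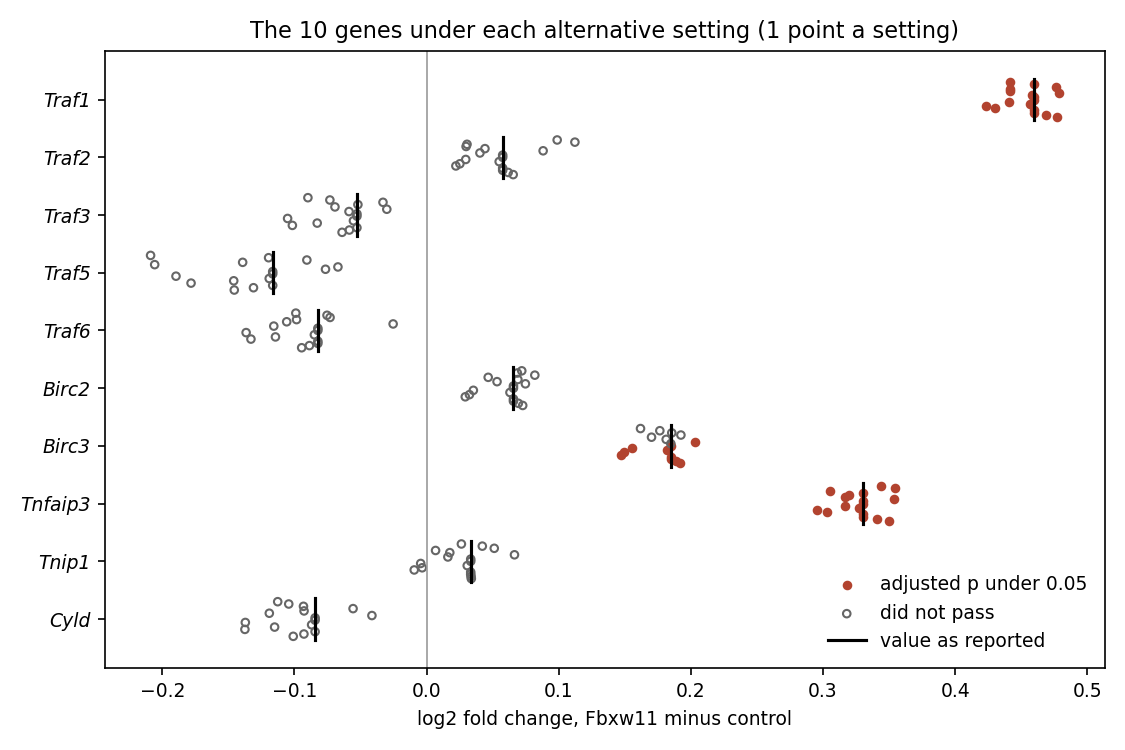
Log2 fold change of each gene (x axis) under each alternative setting of the analysis, 1 point a setting, filled red where the adjusted p was under 0.05 and open where it was not, with the value as reported in black. All points of Traf1 and Tnfaip3 are red, those of Birc3 are mixed, and those of Tnip1 lie on both sides of 0.

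The rest of the pathway was read from 5 lists of 70 genes, all present in the table, of which 64 were tested. Of these 18 rose and 0 fell (28.1% higher, against 4.60% over all genes tested), and their median log2 fold change was 0.08. The lists were chosen with earlier results of these data known, so this share is a description, and enrichment was not tested. At an unadjusted p under 0.05, 24 were higher and 2 lower, and voom on recovered reads called 18 higher and 2 lower. The count of rises was 11 without Fbxw11 library 2, 8 without control library 1 and 7 without control library 2. It was 11 without both libraries numbered 3, which stood apart on the second principal component.

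Receptors that use TRAFs rose in 4 of 11 tested members (36.4%, against 4.60% over all genes tested). The count was 2 without control library 1 and 2 without control library 2. Tnfrsf1b, the gene of TNF receptor 2, which binds TRAF2, had 131, 124 and 132 FPKM in Fbxw11 libraries, against 83.3, 86.5 and 91.1 FPKM in control libraries (log2 fold change 0.56, SE 0.046, limma adjusted p = 0.00148). Cd40, a receptor for T cell help that recruits several TRAFs, had 12.6, 13.8 and 13.6 FPKM in Fbxw11 libraries, against 8.27, 8.80 and 9.68 FPKM in control libraries (0.54, limma adjusted p = 0.00516). Both groups of libraries were far apart for these receptors, whose fitted differences were larger than that of Traf1, although the difference between genes was not tested. Tnfrsf1a, TNF receptor 1, averaged 25.0 ± 0.713 FPKM in Fbxw11 and 21.1 ± 0.491 FPKM in control libraries (log2 fold change 0.24, limma adjusted p = 0.0123). Its call was lost without control library 1 (limma adjusted p = 0.0554) and without control library 2 (0.0634). Tnfrsf8, the gene of CD30, averaged 4.28 ± 0.335 FPKM in Fbxw11 and 3.14 ± 0.222 FPKM in control libraries (SD, n = 3 each), a call lost under 7 alternatives. Tnfrsf11a, the RANK receptor, which uses TRAF6, was named after its value was seen. It averaged 7.57 ± 0.833 FPKM in Fbxw11 and 9.54 ± 0.405 FPKM in control libraries (log2 fold change -0.30, limma adjusted p = 0.0611), and it passed the threshold as lower under 4 alternatives.

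Adaptors and kinases rose in 5 of 20 tested members (25%, against 4.60% over all genes tested). This count was 4 or 5 in each fit without 1 library. Irak2, a kinase-like signalling protein downstream of MyD88, had 20.2, 20.1 and 19.4 FPKM in Fbxw11 libraries, against 15.2, 15.8 and 15.3 FPKM in control libraries (log2 fold change 0.35, limma adjusted p = 0.00300). Ticam1, which encodes the Toll-like receptor adaptor TRIF, rose by 0.38, the adaptor Myd88 by 0.30 and Ikbke, a kinase of interferon regulatory factors, by 0.34 on the log2 scale (limma adjusted p = 0.00440, 0.00635 and 0.00635). These 4 kept their calls under all 17 alternatives, and the kinase gene Irak4 (3.75 FPKM in Fbxw11 and 3.06 FPKM in control libraries) also rose, and was named after its value was seen.

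Among other ubiquitin ligases and conjugating enzymes, 1 of 10 tested members rose (10%, against 4.60% over all genes tested). A count of 1 gene is too small to set apart from that share. None rose in 5 of the 6 fits without 1 library, the exception being the fit without Fbxw11 library 3. Peli1, a ligase of the Pellino family in Toll-like receptor signalling, averaged 11.1 ± 0.616 FPKM in Fbxw11 and 9.07 ± 0.434 FPKM in control libraries (limma adjusted p = 0.0303), a call lost under 9 alternatives. Ube2n, the conjugating enzyme that works with TRAF6, had 22.9 ± 0.251 FPKM in Fbxw11 and 24.0 ± 1.39 FPKM in control libraries (limma adjusted p = 0.467). Of the deubiquitinases and ubiquitin-binding proteins, 2 of 13 rose (15.4%, against 4.60% over all genes tested). This count was 1 without Fbxw11 library 1 or 3 and 0 without Fbxw11 library 2 or any 1 of the control libraries. Tnip3, a relative of Tnip1 that encodes ABIN3, averaged 2.25 ± 0.202 FPKM in Fbxw11 and 1.54 ± 0.0625 FPKM in control libraries (log2 fold change 0.36, limma adjusted p = 0.0279). Otulin, which cuts linear ubiquitin chains, averaged 34.4 ± 1.73 FPKM in Fbxw11 and 29.2 ± 1.47 FPKM in control libraries (0.23, limma adjusted p = 0.0450). The calls for Tnip3 and Otulin were lost under 8 and 9 alternatives.

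NF-kB subunits and their inhibitors rose in 6 of 10 members (60%, against 4.60% over all genes tested). This count was 3 without Fbxw11 library 1, 2 without control library 1, 1 without control library 2 and 2 without both libraries numbered 3. Nfkbiz, an atypical inhibitor family member that acts in the nucleus, averaged 43.2 ± 0.669 FPKM in Fbxw11 and 35.9 ± 1.04 FPKM in control libraries (log2 fold change 0.26, limma adjusted p = 0.00706). Nfkbia, the gene of IkBα, a classical β-TrCP substrate, averaged 130 ± 5.001 FPKM in Fbxw11 and 111 ± 1.14 FPKM in control libraries (0.24, limma adjusted p = 0.0122), a call lost without control library 1 (adjusted p = 0.0578) and without control library 2 (0.0534). Nfkb2 rose by 0.25 and Nfkb1 by 0.18 on the log2 scale, calls lost under 3 and 6 alternatives. The other 2 were Nfkbib, the gene of IkBβ, by 0.35 and the subunit gene Rel by 0.21 (limma adjusted p = 0.0242 and 0.0240). Both were named after their values were seen. The 1 call left without control library 2 was that of Nfkbiz (limma adjusted p = 0.0395), so Nfkbib and Rel lost theirs in that fit.

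**Figure D5:**
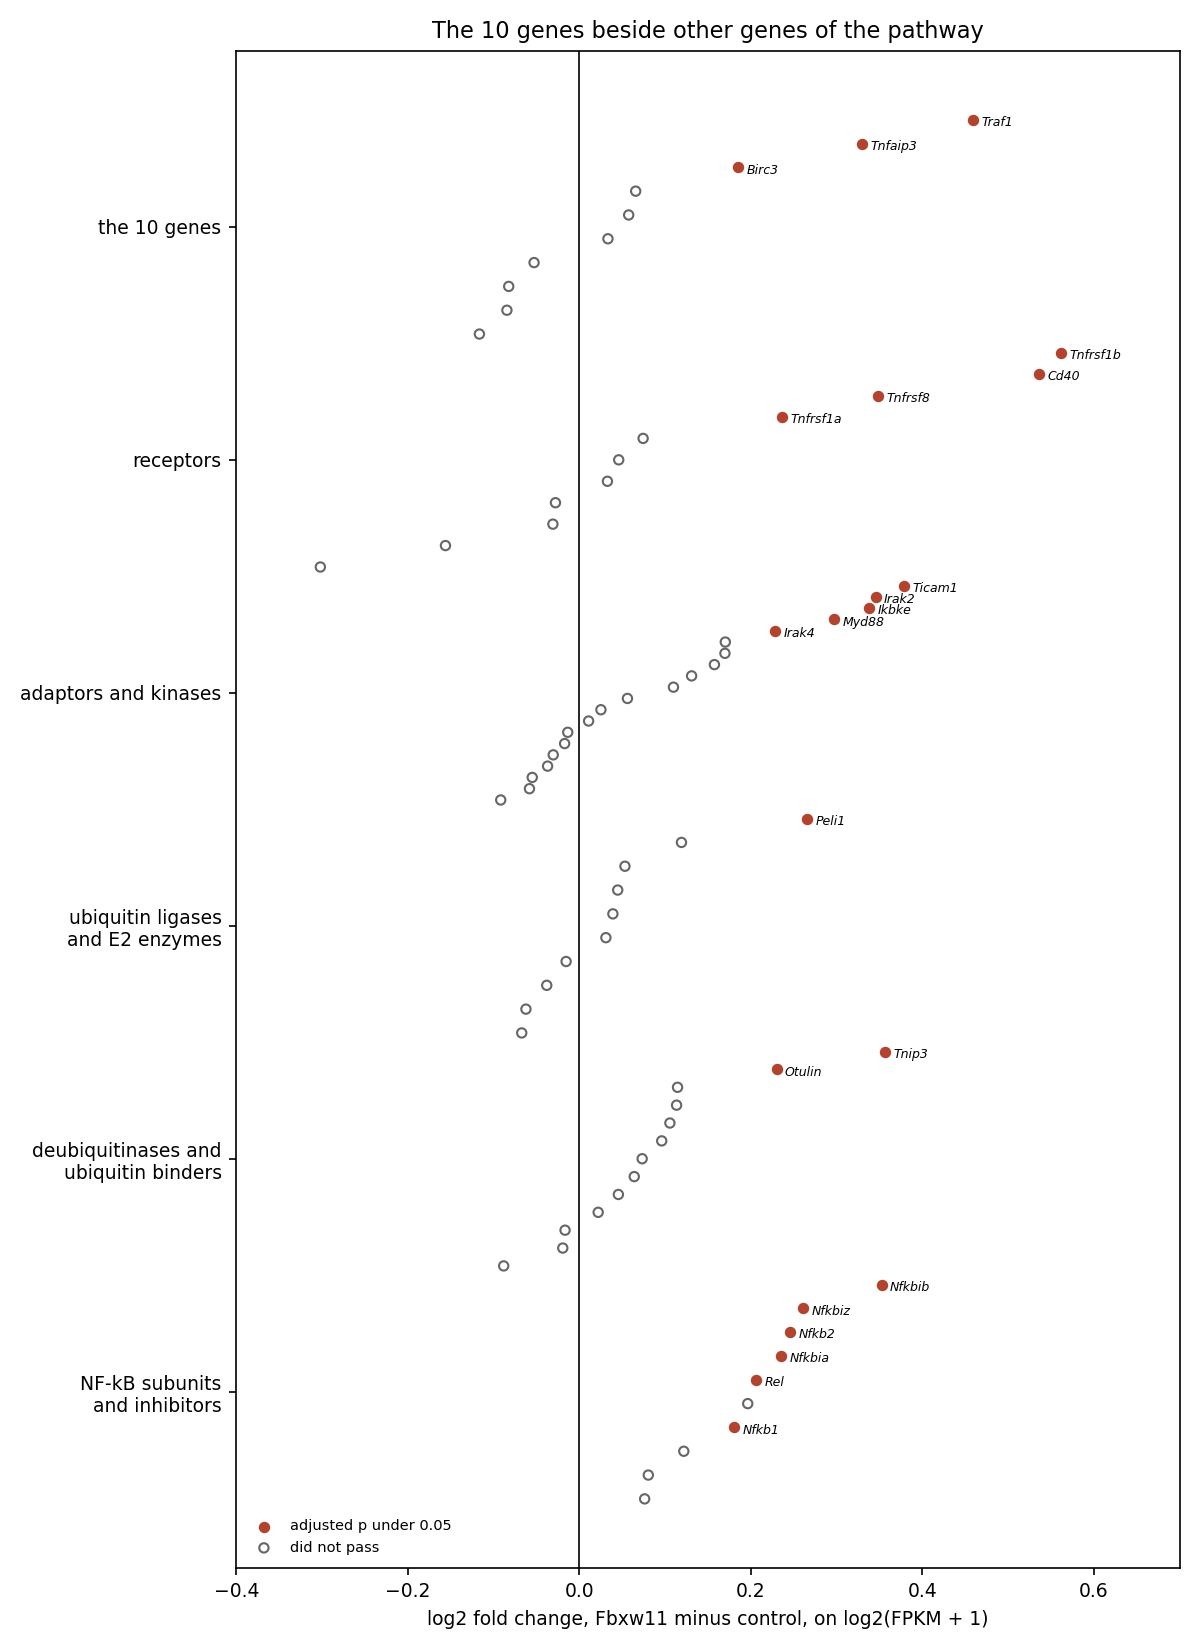
Log2 fold change (x axis, Fbxw11 minus control on log2(FPKM + 1)) of the 10 genes and of the tested members of 5 pathway lists, 1 point a gene, filled red and named where the adjusted p was under 0.05. All named points lie right of 0, and the receptors span the widest range, with Tnfrsf1b at 0.56 and the open point of Tnfrsf11a at -0.30.

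The genes whose profile over the 6 libraries was most like that of Traf1, by the mean absolute difference of log2(FPKM + 1) after subtracting each gene's control mean, were Oasl1 (0.020), an interferon-induced antiviral gene, Tlr1 (0.029), a Toll-like receptor gene, and Atf3 (0.032), a stress-induced transcription factor gene. Tlr1 had 12.2, 12.0 and 11.8 FPKM in Fbxw11 libraries, against 8.20, 8.75 and 8.85 FPKM in control libraries. For Tnfaip3 they were Srcin1 (0.012), which encodes a Src kinase regulator, Tlr6 (0.019), which like Tlr1 encodes a partner of TLR2, and Carhsp1 (0.026), which encodes an RNA-binding protein. Tlr6 had 9.77, 10.1 and 9.78 FPKM in Fbxw11 libraries, against 7.82, 7.52 and 7.96 FPKM in control libraries. Srcin1 averaged only 1.27 FPKM in Fbxw11 and 0.816 FPKM in control libraries, so that it passed the minimum of 1 FPKM through the Fbxw11 libraries, and its call was lost under 12 of 16 alternatives. These are the nearest protein-coding genes among those tested, outside the 10, over 6 libraries in 2 groups, and the likeness is a description.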

How the data were processed

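RNA was sequenced in 6 libraries, 3 per group, grouped by their titles. The authors deposited FPKM per gene, per the file headers; the build is mm10 in the submitters' processing notes. The aligner, counter and annotation were not given in the sources used here. Of 52036 gene identifiers shared with GENCODE annotation of that build 2.76% had the same start and end, so the table's coordinates do not match that build. FPKM times gene length was a whole multiple of 1 step per library (100% of values above 0 within 0.02 reads of a whole number), which gave reads per gene; the authors' library sizes were 0.987 to 0.993 times their sum in Fbxw11 and 1.01 to 1.02 times in control libraries. Counting errors assume independent reads.

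Genes that averaged 1 FPKM or more were tested on log2(FPKM + 1) with limma 3.58.1 in R 4.3.3. The fit used a mean-variance trend, two-sided tests and no covariate, with Benjamini-Hochberg over 10898 genes and a threshold of 0.05. It was also run on simulated data with 50 changed genes at each size. There, 58% of 1.25-fold and 78% of 1.5-fold changes were called, with 9 false calls among 10890 genes. Changes of these sizes can therefore go uncalled. "Rose" and "fell" mean past that threshold, and fold changes on this scale understate changes of low genes. Ratios used scipy 1.17.1. Promoter windows came from RefSeq (GRCm38.p6). The members and lists were chosen with earlier results of these data known. Named pathway genes are up to 4 called members with the smallest p per list, filled to 2 by abundance. Alternatives were other pseudocounts (0.1, 0.5), filters, scalings, voom, no trend, a replicate block and each library left out.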

Additional observations from a re-analysis of the deposited data

How the results depend on the processing

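Of the 10 genes, Traf1 and Tnfaip3 passed under all 17 alternatives (log2 fold changes 0.42 to 0.48 and 0.30 to 0.35, limma adjusted p at most 0.0157 and 0.0341). Birc3 passed under 10 of 17 and was lost in 5 fits without 1 library, without both libraries numbered 3 (adjusted p = 0.0895) and with a replicate block. No other member passed under any alternative, and their signs held except for Tnip1, at -0.0094 on the TPM scale, -0.0034 over plain library sums and -0.0045 with voom. Within the 2 libraries of each group not numbered 3, Traf1 had a log2 fold change of 0.44 (limma adjusted p = 0.0157) and Tnfaip3 of 0.34 (0.0295). That alternative was chosen after seeing the data.

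Over all genes, 1007 passed, against 596 with no filter, 1559 with voom and between 409 and 801 without 1 library. Rises were 49.8% of calls, against 32.8% on the TPM scale, 35.5% over plain sums and 33.4% with voom. The pathway lists held 18 rises, against between 7 and 15 without 1 library and 11 without both libraries numbered 3. They held 0 falls, against 1 with a minimum of 5 FPKM, 1 on the TPM scale, 1 over plain sums and 2 with voom. The median log2 fold change of all genes was 0.0029 in the main fit and 0.014 with a minimum of 5 FPKM. It was -0.038 on the TPM scale, -0.029 over plain sums and -0.034 with voom. The cause of the differing counts was not tested. The 4 ratios kept their direction in all alternatives run, with differences from 0.10 to 0.46.

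Replicate numbers are not stated to pair the libraries, and the correlations were mixed. Deviations of same-numbered libraries correlated at 0.036, 0.041 and 0.19 for numbers 1, 2 and 3. The libraries numbered 3 gave the highest value of any pair, and both stood apart on the second principal component. Fbxw11 library 2, in contrast, correlated best with control library 1 (0.15). Whether same-numbered libraries share an origin was not tested. With the replicate number as a block, 621 genes passed and Birc3 did not (adjusted p = 0.0709). Depth limits Traf5 most, with as few as 245 reads in a library.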
